A study of Mus musculus with 12 samples.

Results

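The Hoxb cluster genes are the members of the mouse Hoxb cluster named Hoxb2, Hoxb3, Hoxb4, Hoxb5, Hoxb6, Hoxb7 and Hoxb8, together with Hoxb5os, an RNA transcribed from the opposite strand. They were chosen by name, 8 genes of 37614 in the gene table built from the deposited exon counts, and all 8 had a row there. RNA was sequenced in 12 mouse libraries that form 4 groups of 3. MLL-ENL HSC and MLL-ENL preGM came from the strain Col1a1-MLL/ENL, and WT HSC and WT preGM from C57bl/6 wild type mice. HSC, haematopoietic stem cells, were sorted as Lin-Sca1+ckit+CD48-CD150+, and preGM, early granulocyte and macrophage progenitors, as ckit+ cells without lineage markers, Sca1, CD150, CD105, CD41 or CD16/32. Cells of all 4 groups, WT included, spent 48 h in culture with 1 µg/ml doxycycline, serum, SCF, IL3 and G-CSF. The design text speaks of induction of the MLL-ENL fusion gene. No MLL-ENL library without doxycycline is among them, so the fusion and any other difference between the strains cannot be told apart, and "with MLL-ENL" is meant in this sense throughout. Neither the animals' age and sex, nor the promoter of the transgene, nor whether separate animals or cultures gave the replicates is stated in the labels, so p-values speak for the spread among the libraries, part of which may be technical.

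HOX proteins are transcription factors that bind DNA through a homeodomain, usually beside PBX and MEIS partners. Their genes lie in clusters in which the order along the chromosome follows the order of use along the body axis. In blood, Hoxb genes are known for their activity in stem cells and early progenitors: Hoxb4 is known for expanding stem cells when it is supplied in excess, Hoxb5 for marking long-term mouse stem cells, and Hoxb8 for blocking myeloid differentiation when it is forced on. MLL (Kmt2a) is a histone methyltransferase that maintains HOX gene activity, and MLL-ENL joins it to ENL (Mllt1), a reader of acetylated histones that works with transcription elongation complexes. In leukaemias with MLL fusions, Hoxa genes and Meis1 are the classical targets.

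Gene counts per library totalled 18981222 to 23454284 in MLL-ENL HSC and 14530521 to 18158890 in WT HSC, and 38467950 to 50327956 in MLL-ENL preGM and 34745442 to 44496304 in WT preGM. Levels are CPM, counts scaled to 1 megacount per library after TMM normalization. The labels of the cell types were checked against markers: 8 HSC markers such as Procr and Hlf summed to 602 to 678 CPM in MLL-ENL HSC and 462 to 526 CPM in WT HSC, against 31.1 to 37.3 CPM in MLL-ENL preGM and 32.5 to 40.5 CPM in WT preGM. The 8 granulocyte-macrophage markers summed to 417 to 441 CPM in MLL-ENL HSC and 564 to 643 CPM in WT HSC, mostly Prtn3 and Cd34. In preGM, where Mpo and Elane led, they summed to 12860 to 16515 CPM with MLL-ENL and 27125 to 29921 CPM in WT. Of these 8 genes, 6 were higher and 1 lower in WT preGM than in WT HSC. Cd34 went against the rest there, with 36.3 to 51.0 CPM in WT preGM and 213 to 276 CPM in WT HSC. With MLL-ENL, 7 were higher in preGM and none lower. In bulk RNA, fewer cells of a type and less RNA per cell cannot be told apart. MLL-ENL preGM replicate 1 and WT preGM replicate 2 stood apart from the rest of their groups in earlier results of these data, and here had 20264 genes with a count against 18922 and 19126 in MLL-ENL preGM, and 18312 against 19199 and 19139 in WT preGM.

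The 7 protein-coding members share the homeobox, the stretch that encodes the DNA-binding homeodomain, so parts of their transcripts are alike. The longest exact run that a member's transcripts shared with another HOX gene was 52 bases (Hoxb4 with Hoxa6), then 47 (Hoxb3 with Hoxd3) and 37 (Hoxb7 with Hoxb6), and 28 to 32 bases for Hoxb8, Hoxb5 and Hoxb2. How many reads could fall on more than 1 of these genes, given a read length that the labels do not state, was not tested.

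The members lie within 72.1 kb of chromosome 11 (GRCm38), from Hoxb8 (96281905 to 96285315) through Hoxb7 (96286623 to 96290162), Hoxb6 (96292476 to 96301569), Hoxb5 (96303336 to 96306121), Hoxb4 (96318267 to 96321638) and Hoxb3 (96323326 to 96347930) to Hoxb2 (96350525 to 96354012), all on the plus strand. Hoxb5os (96291024 to 96306910) runs on the minus strand across Hoxb6 and Hoxb5. Among the members, Hoxb5os, Hoxb5 and Hoxb4 had the highest levels in both HSC groups. Per kilobase of exon, the order of levels in MLL-ENL HSC was Hoxb5os at 14.6 ± 1.75 CPM per kb (SD, n = 3), Hoxb5 at 4.84 ± 0.521, Hoxb4 at 2.06 ± 0.246, Hoxb6 at 0.915 ± 0.192, Hoxb7 at 0.830 ± 0.412, Hoxb2 at 0.376 ± 0.0211, Hoxb3 at 0.186 ± 0.0913 and Hoxb8 at 0.0201 ± 0.0348. Hoxb6 and Hoxb7, next to each other in that order, did not differ beyond their spread. Hoxb2 was counted here on a single exon of 3134 bases, with 35, 30 and 35 counts in MLL-ENL HSC. An exon of 1067 bases in its other transcript, which the antisense RNA Hoxb3os overlaps, had 98, 53 and 78. The place of Hoxb2 in the order thus depends on the transcript counted. In WT HSC the order began likewise with Hoxb5os at 4.18 ± 1.68 CPM per kb (SD, n = 3), Hoxb5 at 1.14 ± 0.789 and Hoxb4 at 0.908 ± 0.303, and Hoxb5 and Hoxb4 did not differ beyond their spread. In MLL-ENL preGM, Hoxb5os led with 0.719 ± 0.0988 CPM per kb (SD, n = 3), before Hoxb4 at 0.233 ± 0.104 and Hoxb5 at 0.151 ± 0.00507, of which the last pair overlapped. In WT preGM, Hoxb4 led with 0.449 ± 0.149 CPM per kb (SD, n = 3) and Hoxb5os followed with 0.0422 ± 0.0429.

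**Figure D1:**
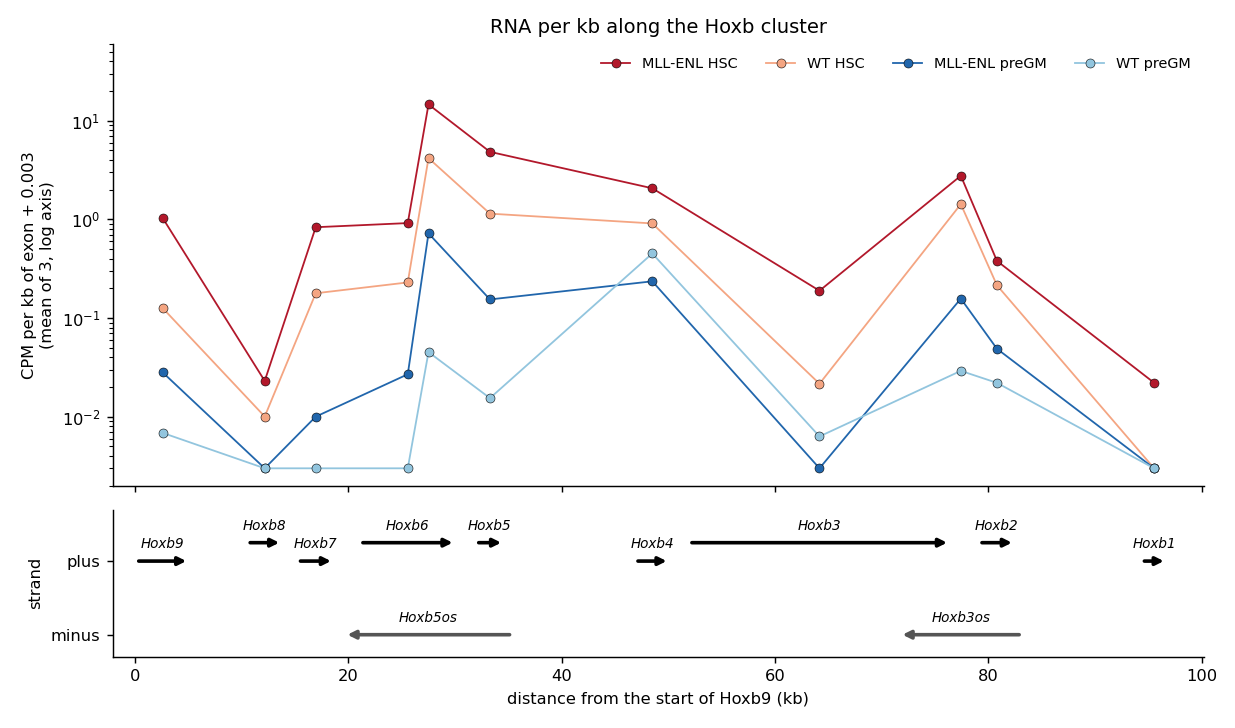
Mean CPM per kilobase of exon (n = 3, log axis, offset 0.003) of the Hoxb cluster genes in the 4 groups, against distance along the cluster, with the genes' extents and strands below. The lines of MLL-ENL HSC and WT HSC peak at Hoxb5os (14.6 and 4.18 CPM per kb), while the WT preGM line peaks at Hoxb4 (0.449 CPM per kb).

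Summed over the 8 members, the cluster gave 32.7, 41.8 and 37.5 CPM in MLL-ENL HSC and 9.55, 8.47 and 16.1 CPM in WT HSC. It gave 1.56, 2.44 and 2.29 CPM in MLL-ENL preGM and 2.09, 2.56 and 1.34 CPM in WT preGM. The HSC groups did not overlap, while the preGM groups did. The make-up of the sum differed between the preGM groups: Hoxb4 took 31.3% to 54.7% of it in MLL-ENL preGM and 85.7% to 98.2% in WT preGM. In HSC, Hoxb4 took 22.3% to 23.9% with MLL-ENL and 22.6% to 53.2% in WT.

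**Figure D2:**
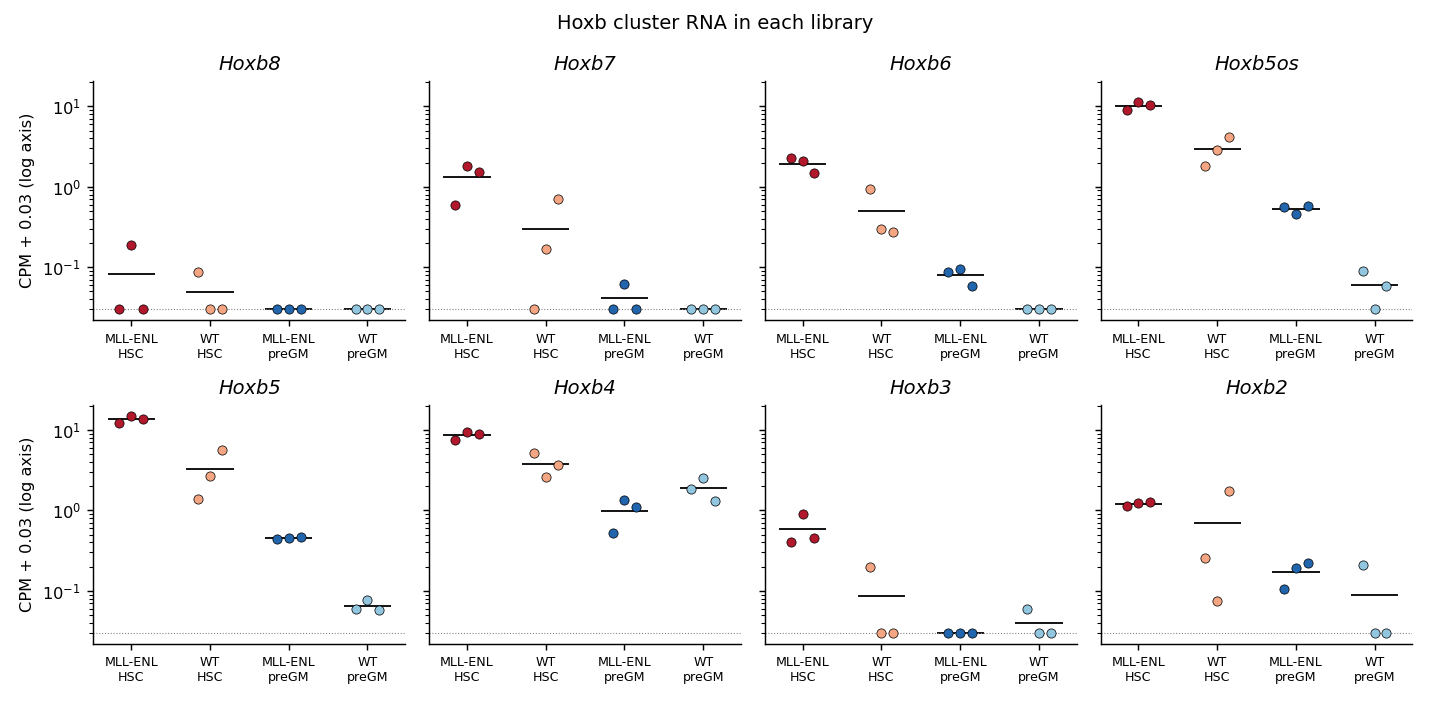
CPM (log axis, offset 0.03) of each of the 8 members in each library, 1 point per library and a bar at the group mean (n = 3), with MLL-ENL left of WT within each cell type. Points on the dotted line are libraries with no counts, as for Hoxb6 in all 3 WT preGM libraries; Hoxb5 sits at 12.2 to 15.1 CPM in MLL-ENL HSC and at 1.34 to 5.66 CPM in WT HSC.

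The question of which Hoxb genes respond to MLL-ENL in stem cells was put by setting MLL-ENL HSC against WT HSC. Hoxb5 and Hoxb5os, neighbours on opposite strands, were higher with MLL-ENL, and no member was lower. Hoxb5, a homeobox gene whose RNA marks long-term stem cells in mice, had 12.2, 15.1 and 13.6 CPM in MLL-ENL HSC and 1.34, 2.63 and 5.66 CPM in WT HSC. The WT HSC values spread over a wide range, and the lowest MLL-ENL HSC library still lay above the highest WT HSC library. The log2 change of Hoxb5 was 2.09 ± 0.41 (SE; edgeR quasi-likelihood test, Benjamini-Hochberg adjusted p = 0.00937). Counted only on its exon that no other gene shares, Hoxb5 had a log2 change of 2.25 ± 0.77 and did not pass (edgeR adjusted p = 0.119). Hoxb5os had 8.89, 11.3 and 10.4 CPM in MLL-ENL HSC and 1.79, 2.81 and 4.12 CPM in WT HSC. Again the groups did not overlap, and WT HSC replicate 1 was the lowest and replicate 3 the highest for both genes. Its log2 change was 1.81 ± 0.38 (SE; edgeR, adjusted p = 0.0141). The call of Hoxb5os no longer held when WT HSC replicate 1 was left out (adjusted p = 0.0563), without MLL-ENL HSC replicate 2 (0.0675) or without MLL-ENL HSC replicate 3 (0.0557), in a range of 8.51e-05 to 0.0675 over its alternatives with edgeR, DESeq2 and limma. With 2 of 7 tested members higher, the background was 3.19% higher and 0.929% lower of the 15711 genes tested, and the median log2 change was 2.01 over the 7 members and 0.02 over all genes.

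The other 5 tested members did not pass in HSC, though each had a positive log2 change and 4 of them an unadjusted p under 0.05. Hoxb4, the stem cell expansion factor, had 7.41, 9.31 and 8.98 CPM in MLL-ENL HSC and 5.08, 2.58 and 3.63 CPM in WT HSC. These groups did not overlap, and the log2 change of 1.19 ± 0.40 (SE) had an adjusted p of 0.117 with edgeR. Hoxb4 passed under 5 of 22 alternatives (adjusted p from 0.0152 to 0.275), among them when the libraries that stood apart were both left out (0.0152, 1.19 on the log2 scale). Hoxb6, between Hoxb7 and Hoxb5, had 2.22, 2.03 and 1.45 CPM in MLL-ENL HSC and 0.894, 0.272 and 0.246 CPM in WT HSC. Its log2 change was 2.01 ± 0.68 (SE, edgeR adjusted p = 0.123). Exon 1 of Hoxb6 had 26, 17 and 15 counts in MLL-ENL HSC and 14, 2 and 0 in WT HSC. Its last exon had 39, 33 and 26 in MLL-ENL HSC and 2, 4 and 4 in WT HSC. Both exons lie inside introns of Hoxb5os. Hoxb7, the homeobox gene between Hoxb8 and Hoxb6, had 0.570, 1.79 and 1.49 CPM in MLL-ENL HSC and 0, 0.136 and 0.677 CPM in WT HSC, where the ranges overlapped (2.26 ± 1.03 SE, edgeR adjusted p = 0.259). Hoxb3 had 46 counts in the 3 MLL-ENL HSC libraries together and 3 in WT HSC, a ratio of 10.1 with a 95% counting interval of 3.26 to 51.0 (exact). Its test gave an adjusted p of 0.154 with edgeR. Hoxb2 is described with the antisense RNAs further on. Hoxb8 was too low to test in any comparison, with 4 counts in 1 MLL-ENL HSC library, 1 count in 1 WT HSC library and no counts in preGM of either strain. CPM ranges that did not overlap, with MLL-ENL higher, were found for 5 members (Hoxb6, Hoxb5os, Hoxb5, Hoxb4 and Hoxb3), against 17.8% of all genes tested.

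In preGM the same comparison found Hoxb5os and Hoxb5 higher with MLL-ENL, at levels far below those of HSC. Hoxb5os had 0.527, 0.422 and 0.552 CPM in MLL-ENL preGM and 0.0597, 0 and 0.0285 CPM in WT preGM, which is 61 counts against 3 over the groups' libraries. The ratio was 15.3 with a 95% counting interval of 4.98 to 76.0, and the test gave an adjusted p of 0.00151 (edgeR quasi-likelihood). Hoxb5 had 0.414, 0.422 and 0.442 CPM in MLL-ENL preGM and 0.0299, 0.0465 and 0.0285 CPM in WT preGM, or 51 counts against 3. Its ratio was 12.8 (4.12 to 63.9), with an adjusted p of 0.00578 (edgeR). All 3 MLL-ENL preGM libraries lay above all 3 WT preGM libraries for both genes, and WT preGM held a single count of Hoxb5 per library. The Hoxb5 call was lost with limma on log2(RPKM + 0.1) (adjusted p = 0.115), and with its first exon alone (0.676), in a range of 0.000961 to 0.676 over its alternatives. The background was 3.7% of genes higher and 3.07% lower, and the median log2 change was 1.60 over the 7 members and 0.08 over all genes. That member median is the fitted value of Hoxb7, which had 1 count in MLL-ENL preGM and none in WT preGM. It therefore depends on the fit's prior count.

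Hoxb4 did not pass in preGM: it had 0.489, 1.33 and 1.08 CPM in MLL-ENL preGM and 1.79, 2.51 and 1.28 CPM in WT preGM. The ranges overlapped in 1 pair of libraries, and the log2 change of -0.95 ± 0.42 (SE) did not pass (edgeR adjusted p = 0.186). Without the 2 libraries that stood apart it was -0.35 (0.775). Hoxb6 had 1 to 3 counts in each MLL-ENL preGM library and none in WT preGM, 6 counts against 0. The exact 95% counting interval of the ratio began at 0.883, so that no difference was detectable at this depth (edgeR adjusted p = 0.139). The MLL-ENL preGM counts (3, 2 and 1) all lay in Hoxb6 exon 1, inside an intron of Hoxb5os, and its last exon had none. Counting ignored strand, so reads of Hoxb6 and Hoxb5os cannot be told apart there. Hoxb7 had 1 count in MLL-ENL preGM and none in WT preGM, and Hoxb3 none in MLL-ENL preGM and 1 in WT preGM, so that no fold is given for them. Hoxb2 had 16 counts in MLL-ENL preGM and 6 in WT preGM, and the 6 were in a single library (edgeR adjusted p = 0.624). CPM ranges did not overlap, with MLL-ENL higher, for Hoxb6, Hoxb5os and Hoxb5, against 15.1% of all genes tested.

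**Figure D3:**
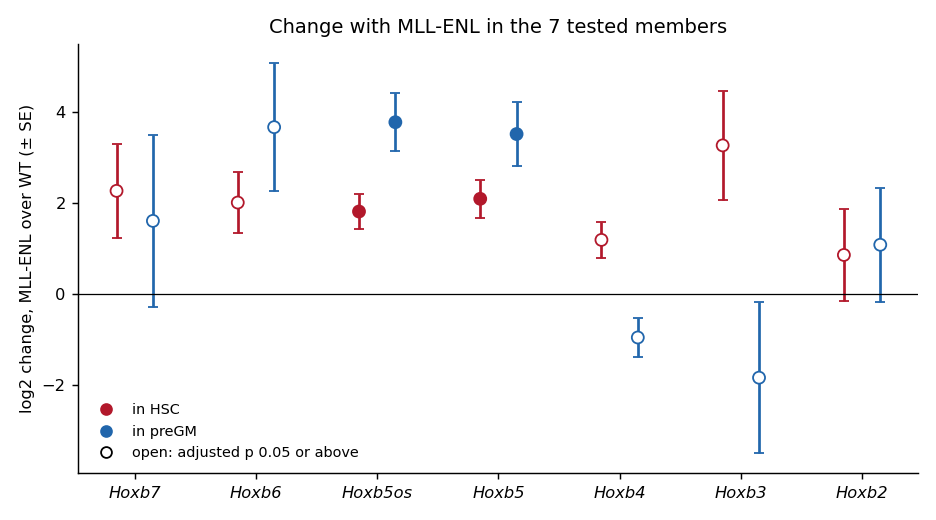
Fitted log2 change, MLL-ENL over WT, of the 7 tested members in HSC (red) and preGM (blue), with bars of ± 1 SE from the edgeR fit; filled points passed the threshold of 0.05. Hoxb5os and Hoxb5 are filled in both cell types, and Hoxb4 lies above 0 in HSC (1.19) and below 0 in preGM (-0.95); values of genes with 3 or fewer counts in a group, such as Hoxb6 in preGM, depend on the fit's prior count.

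Markers of the sorted cells and of other cells moved with the preGM comparison, in both directions. Of the 8 granulocyte-macrophage markers, 5 were lower and 1 higher in MLL-ENL preGM than in WT preGM, with a median log2 change of -1.48. The stromal and endothelial list summed to 34.9 to 112 CPM in MLL-ENL preGM and 31.3 to 33.9 CPM in WT preGM. The 6 neutrophil granule and alarmin genes, all measured, summed to 17.6 to 44.8 CPM in MLL-ENL preGM and 3576 to 5642 CPM in WT preGM, and the mast cell and basophil list to 225 to 327 CPM in MLL-ENL preGM and 1306 to 2050 CPM in WT preGM, with Mcpt1 at 0 in every library. In WT preGM the mast cell and basophil sum was mostly Mcpt8 and Cpa3. Of the 5 genes of that list tested, 2 were lower and none higher, with a median log2 change of -0.23. The lymphoid list summed to 2.73 to 5.36 CPM in MLL-ENL preGM and 1.16 to 1.49 CPM in WT preGM, with Dntt higher (4.76 on the log2 scale). The sums of the HSC marker list overlapped (31.1 to 37.3 CPM in MLL-ENL preGM and 32.5 to 40.5 CPM in WT preGM), but 4 of its 8 genes were higher with MLL-ENL and 1 lower, with a median log2 change of 1.04. Mecom had 5.30 to 8.79 CPM in MLL-ENL preGM and 0.398 to 0.652 CPM in WT preGM, Slamf1 0.978 to 1.82 CPM in MLL-ENL preGM and 0.0896 to 0.186 CPM in WT preGM, and Procr and Fgd5 were also higher. Ly6a, the most abundant of the list in WT preGM, was lower, with 5.04 to 8.34 CPM in MLL-ENL preGM and 20.2 to 28.0 CPM in WT preGM. The part of all these genes' cells in the Hoxb results was not tested. The megakaryocyte list summed to 194 to 241 CPM in MLL-ENL HSC and 551 to 691 CPM in WT HSC. Of its 6 genes, Pf4 and Ppbp were lower and Vwf higher (1.01 on the log2 scale), with a median of -0.04, and Pf4 alone had 30.8 to 67.9 CPM in MLL-ENL HSC and 422 to 565 CPM in WT HSC. The erythroid list summed to 25.5 to 31.3 CPM in MLL-ENL HSC and 86.3 to 111 CPM in WT HSC. Most of this was Hbb-bt, with 18.9 to 21.4 CPM in MLL-ENL HSC and 79.6 to 104 CPM in WT HSC. Of the 6 erythroid genes, 1 was lower and none higher, with a median log2 change of 0.24. The lymphoid list summed to 0 to 0.222 CPM in MLL-ENL HSC and 2.35 to 4.08 CPM in WT HSC, with Cd3e at 0 in every library. The WT HSC sum was mostly Dntt, the 1 gene of that list tested, with 185 counts in WT HSC and none in MLL-ENL HSC. The stromal and endothelial list summed to 30.1 to 32.6 CPM in MLL-ENL HSC and 16.1 to 18.4 CPM in WT HSC. The part of these cells in the HSC results was not tested either.

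Whether the response to MLL-ENL differed between the cell types was tested as an interaction, the preGM response minus the HSC response. With edgeR, 0 of 7 members passed, against 3.13% of all genes in either direction, and 2 had an unadjusted p under 0.05. These were Hoxb4, whose response was lower in preGM by a log2 value of -2.14 ± 0.58 (SE, adjusted p = 0.0591), and Hoxb5os, with 1.96 ± 0.76 (adjusted p = 0.199). For Hoxb4 the call was made under 5 of 21 alternatives: DESeq2 (adjusted p = 0.00864), no filter on low counts (0.0397), limma (0.038), without WT HSC replicate 1 (0.0489) and without MLL-ENL preGM replicate 2 (0.0445). Over all its alternatives the adjusted p of Hoxb4 lay between 0.00864 and 0.141, with a log2 value of -2.44 to -1.54. DESeq2 thus called 1 member, against 0 with edgeR. Hoxb5 had an interaction of 1.42 ± 0.83 (SE, edgeR adjusted p = 0.435), so that its larger ratio in preGM was not shown to differ from that in HSC.

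The exons of Hoxb4 behaved unequally. Its first deposited exon (96316684 to 96319223, 2540 bases) had 52, 39 and 32 counts in MLL-ENL HSC and 2, 3 and 0 counts in WT HSC. Its second exon (96320030 to 96321638, 1609 bases), which holds the homeobox, had 182, 195 and 222 counts in MLL-ENL HSC and 89, 54 and 59 counts in WT HSC. The pooled ratio per megacount was thus 16.3 for exon 1 (95% counting interval 6.79 to 51.0) and 1.96 for exon 2 (1.67 to 2.31). Exon 1 held 22.2%, 16.7% and 12.6% of the Hoxb4 counts in MLL-ENL HSC and 2.20%, 5.26% and 0% in WT HSC. The groups did not overlap, but 3 libraries against 3 cannot reach a two-sided p under 0.1 in an exact permutation test. In preGM exon 1 held 4 of 106 counts with MLL-ENL (3.77%, 95% Clopper-Pearson interval 1.04% to 9.38%) and 11 of 159 in WT (6.92%, 3.50% to 12.04%). These intervals hold the error of counting alone: the libraries were amplified and carry no molecular identifiers, so reads may be copies of 1 molecule.

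The deposited Hoxb4 exon 1 begins upstream of the start that GENCODE M21 and RefSeq give the gene, so the RefSeq promoter window of Hoxb4 lies within it. That window is printed because it lies within Hoxb4 exon 1, where the HSC groups were more unequal than in Hoxb4 exon 2. Where in this exon the counts lie is not given, and the exon also contains Mir10a (96317165 to 96317274). The promoter of Hoxb8, the member with the fewest counts, is set beside the Hoxb4 window. Both are 300 bases on GRCm38.p6, plus strand, from RefSeq (chr11:96318017-96318316 and chr11:96281655-96281954). Capitals mark TTTAT on either strand, the core of the site of CDX proteins, which regulate Hox genes in the embryo.
Hoxb4: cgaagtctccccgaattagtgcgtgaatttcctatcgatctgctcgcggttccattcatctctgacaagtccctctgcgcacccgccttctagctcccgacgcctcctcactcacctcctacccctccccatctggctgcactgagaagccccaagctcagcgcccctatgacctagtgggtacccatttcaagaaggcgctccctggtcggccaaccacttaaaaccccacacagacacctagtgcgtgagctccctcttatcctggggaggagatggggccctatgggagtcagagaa
Hoxb8: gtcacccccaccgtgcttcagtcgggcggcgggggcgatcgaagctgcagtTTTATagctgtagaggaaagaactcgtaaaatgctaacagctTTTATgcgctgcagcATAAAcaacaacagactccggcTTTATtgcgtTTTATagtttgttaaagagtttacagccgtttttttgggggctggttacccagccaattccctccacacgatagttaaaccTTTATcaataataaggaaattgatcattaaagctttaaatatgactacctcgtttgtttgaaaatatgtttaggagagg
TTTAT occurred 0 times in the Hoxb4 window and 6 times in that of Hoxb8. Of 32851 promoter windows of the same length, 40.0% held it at least once and 0.502% at least 6 times. CACGTG, the core site of USF proteins, was in neither window and in 7.15% of all windows. CCAAT, the site of NF-Y, occurred once in the Hoxb8 window and not in that of Hoxb4, and 37.4% of all windows held it. TGATNNAT, a PBX and HOX site, occurred once for Hoxb8 and not for Hoxb4, against 8.85% of all windows. These motifs were searched on both strands, and TTTAT can overlap TATAAA, of which the Hoxb8 window held 2. The windows held 14 (Hoxb4) and 13 (Hoxb8) CpG dinucleotides. A match is a description of the letters, not a site in use.

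**Figure D4:**
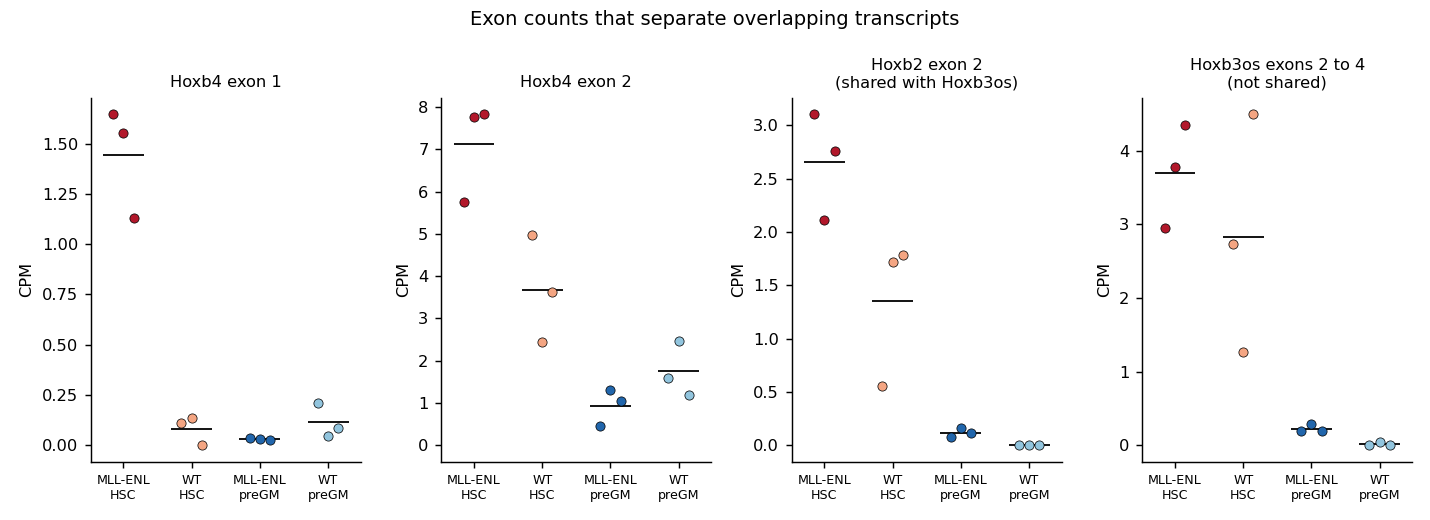
CPM in each library of Hoxb4 exon 1, Hoxb4 exon 2, Hoxb2 exon 2 and exons 2 to 4 of Hoxb3os, 1 point per library with a bar at the group mean (n = 3). Hoxb4 exon 1 lies at 1.13 to 1.65 CPM in MLL-ENL HSC and at 0 to 0.136 CPM in WT HSC, while exon 2 lies at 5.76 to 7.85 CPM in MLL-ENL HSC and at 2.44 to 4.97 CPM in WT HSC.

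How the cluster changes between the cell types was asked within each strain. The comparisons of the strains and of the cell types share libraries, so they are not independent of each other. In WT, 5 of 7 members were lower in preGM than in HSC, against 20.1% of all genes lower, and the median log2 change was -5.97 over the members and -0.03 over all genes. That member median is the fitted value of Hoxb7, which had no counts in WT preGM, so its size depends on the fit's prior count. Hoxb5 (3 counts in WT preGM and 174 in WT HSC) was lower by a pooled ratio of 0.0108 with a 95% counting interval of 0.0022 to 0.032 (edgeR adjusted p = 1.42e-06). Hoxb5os (3 and 161 counts) was lower by a ratio of 0.0116, with an interval of 0.00237 to 0.0346 (edgeR adjusted p = 7.65e-07). Hoxb6 and Hoxb7 had no counts in WT preGM, against 26 and 14 in WT HSC, which by the limit of the exact 95% counting interval makes Hoxb6 at least 10.5-fold lower (edgeR adjusted p = 0.000652) and Hoxb7 at least 5.32-fold lower (0.0177). The Hoxb7 call was lost without WT HSC replicate 3 (0.108), without WT preGM replicate 1 (0.0565), without WT preGM replicate 3 (0.0563) or with limma (0.0947). Hoxb2 passed at an edgeR adjusted p of 0.0449 but under 8 of 20 alternatives only. It had 0.598 without WT HSC replicate 3, which held 28 of its 33 WT HSC counts. These counts came from a single long exon. The Hoxb2 transcript with 2 exons had no counts in WT preGM and 80 in WT HSC, at least 34.0-fold lower by the same limit. Of the 80, 77 lay in its exon 2, where reads of Hoxb2 and of the antisense RNA Hoxb3os cannot be told apart.

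Hoxb4 was the member least different between WT preGM and WT HSC. Its level was 1.79, 2.51 and 1.28 CPM in WT preGM and 5.08, 2.58 and 3.63 CPM in WT HSC, and no library of WT preGM reached the lowest of WT HSC. The log2 change of -1.02 ± 0.41 (SE) missed the threshold with edgeR (adjusted p = 0.0605) and passed it under 7 of 22 alternatives (0.00149 to 0.219 over all). With library size alone as the scaling, the value was -1.75, in a comparison whose median over all genes moved by -0.70, so that Hoxb4 relative to that median was at -1.02. Hoxb3, with 1 count in WT preGM and 3 in WT HSC, gave no direction at this depth.

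With MLL-ENL, 7 of 7 members were lower in preGM than in HSC, against 21.1% of all genes lower, 20.4% higher and 41.5% in either direction, with a median log2 change of -4.98 over the members and 0 over all genes. Hoxb4 had 0.489, 1.33 and 1.08 CPM in MLL-ENL preGM and 7.41, 9.31 and 8.98 CPM in MLL-ENL HSC, groups far apart, with a log2 change of -3.16 ± 0.43 (SE; edgeR adjusted p = 4.39e-05). Hoxb5 changed by -4.98 ± 0.47 (adjusted p = 1.26e-06) and Hoxb5os by -4.33 ± 0.43 (2.08e-06). Hoxb6 changed by -5.14 ± 0.81 (edgeR adjusted p = 0.000236). Hoxb7 had 1 count in MLL-ENL preGM and 105 in MLL-ENL HSC (edgeR adjusted p = 0.00186). Hoxb3 had no counts in MLL-ENL preGM and 46 in MLL-ENL HSC, at least 16.9-fold lower by the same kind of limit (edgeR adjusted p = 0.0023). Hoxb2 changed by -3.03 ± 1.09 (edgeR adjusted p = 0.036) and lost its call without any 1 of the 6 MLL-ENL libraries (0.0696 to 0.12).

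Antisense RNAs overlap exons of 3 protein-coding members, Hoxb5, Hoxb3 and Hoxb2, and Hoxb5os also spans Hoxb6, and the deposited counting ignored strand: for all 114 exon values above 0 in the cluster that lie within an intron of a gene on the other strand, that intron had as many counts or more. Hoxb5os was therefore also counted on the 3 of its exons that no other gene shares. They had 248, 254 and 245 counts in MLL-ENL HSC and 31, 60 and 63 counts in WT HSC, a pooled ratio of 3.21 (95% counting interval 2.69 to 3.84). In preGM they had 23, 13 and 19 counts with MLL-ENL and 2, 0 and 1 in WT. The remaining Hoxb5os exon (96304982 to 96305081) lies wholly inside Hoxb5 exon 2, opposite its homeobox. Reads from it and from that stretch of Hoxb5 cannot be told apart. With the counts of these 100 bases taken away, Hoxb5 exon 2 still had 314, 321 and 299 counts in MLL-ENL HSC and 15, 51 and 87 counts in WT HSC. In preGM it then had 16, 12 and 14 counts with MLL-ENL and 0, 1 and 1 counts in WT. Hoxb5 exon 1, which no other gene shares, had 37, 28 and 37 counts in MLL-ENL HSC and 8, 5 and 1 counts in WT HSC, a ratio of 4.82 (2.74 to 9.13), and 1 count in each MLL-ENL preGM library against 1, 0 and 0 in WT preGM. Across the 12 libraries, the log2 CPM of Hoxb5 and Hoxb5os had a Pearson correlation of 0.991, which describes libraries that share their 4 groups and, in 1 exon, their reads. The correlation of Hoxb4 with Hoxb5os was 0.720.

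Hoxb2 is a homeobox gene of the hindbrain end of the cluster, and Hoxb3os an antisense RNA that runs across Hoxb2 into Hoxb3. Their reads could not be told apart where their exons overlap. The second exon of Hoxb2 (96352950 to 96354016) shares 957 bases with the first exon of Hoxb3os (96353060 to 96354691), which extends past its end. The counts of both exons were identical in 10 of 12 libraries and differed by at most 4, so the bases outside the shared stretch made little net difference. From which of these RNAs the shared counts came was not tested. Hoxb2 exon 2 held 97.0% of the counts of the Hoxb2 transcript with 2 exons. That transcript had 105, 53 and 78 counts in MLL-ENL HSC, 10, 38 and 32 in WT HSC, 4, 5 and 4 in MLL-ENL preGM and none in WT preGM. Hoxb2 exon 1, which Hoxb3os does not cover, had 7, 0 and 0 counts in MLL-ENL HSC, 0, 0 and 3 in WT HSC and none in preGM. The tested Hoxb2 count came from the single long exon of another transcript (96350525 to 96353658, 3134 bases), which Hoxb3os exon 1 overlaps as well, and had 35, 30 and 35 counts in MLL-ENL HSC and 4, 1 and 28 in WT HSC (log2 change 0.86 ± 1.01 SE, edgeR adjusted p = 0.695). The Hoxb2 values are thus uncertain. Exons 2 to 4 of Hoxb3os, which no other gene shares, had 93, 95 and 123 counts in MLL-ENL HSC and 49, 28 and 73 in WT HSC. They had 10, 9 and 7 counts in MLL-ENL preGM and 0, 1 and 0 in WT preGM. Hoxb3 exon 3, which is shared with no other gene, had 1 count in all MLL-ENL HSC libraries together and none in WT HSC. A longer form of this exon had 0, 2 and 4 counts in MLL-ENL HSC, and Hoxb3 exon 1, also unshared, had 0, 5 and 3. Neither had a count in WT HSC. Hoxb3 exon 4, which Hoxb3os overlaps, had 12, 11 and 4 counts in MLL-ENL HSC and 3, 0 and 0 in WT HSC.

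The rest of the cluster was counted beside the members. Hoxb3os passed in preGM, with 0.489, 0.877 and 0.580 CPM in MLL-ENL preGM and 0.0299, 0.186 and 0.114 CPM in WT preGM (log2 change 2.60 ± 0.53 SE, edgeR adjusted p = 0.00614), but not in HSC (0.96 ± 0.36, adjusted p = 0.162). Hoxb9, the posterior neighbour of Hoxb8, had 1.96, 4.06 and 1.98 CPM in MLL-ENL HSC and 0.279, 0 and 0.677 CPM in WT HSC. Its log2 change was 3.10 ± 1.06 (SE) and did not pass (edgeR adjusted p = 0.121). The mean of Hoxb9 lay above that of Hoxb8 in both HSC groups. It was 1.04 against 0.0201 CPM per kb in MLL-ENL HSC and 0.124 against 0.00704 CPM per kb in WT HSC. Hoxb13 had no counts in any library, Hoxb1 3 counts in 1 MLL-ENL HSC library, Mir196a-1 1 count and Mir10a 3 counts, each in 1 MLL-ENL HSC library.

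HOX proteins act with cofactors of the TALE class, of which 8 of 9 were tested. In HSC, 1 was higher with MLL-ENL and none lower: Pbx3 had 30.4, 29.97 and 37.6 CPM in MLL-ENL HSC and 8.55, 8.33 and 6.15 CPM in WT HSC (2.09 ± 0.26 on the log2 scale, edgeR adjusted p = 0.000347). In preGM, 3 were higher and none lower. Meis1 rose with 185, 57.6 and 56.2 CPM in MLL-ENL preGM and 9.04, 8.94 and 10.2 CPM in WT preGM (3.40 ± 0.39, edgeR adjusted p = 6.53e-05) and Pbx3 changed by 1.30 ± 0.26 on the log2 scale. The interaction passed for Meis1, which responded more in preGM (2.80 ± 0.52, edgeR adjusted p = 0.00616). Between cell types, 4 were lower in WT preGM than in WT HSC, among them Meis1 (-3.86 on the log2 scale), Pbx3 (-1.99) and Meis2, which had 2 counts in WT preGM and 43 in WT HSC. In MLL-ENL preGM, 6 were lower than in MLL-ENL HSC, among them Meis2 (1 count and 61 counts), Meis3 (-4.66), Pbx3 (-2.78) and Pbx2 (-1.15).

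The other HOX genes were mostly silent: 10 of 29 were tested, 9 of 11 Hoxa genes, 1 of 9 Hoxc genes and 0 of 9 Hoxd genes. In HSC 1 was higher with MLL-ENL, Hoxa10, with 26.5, 28.8 and 31.2 CPM in MLL-ENL HSC and 14.97, 11.2 and 11.4 CPM in WT HSC (1.20 ± 0.28 on the log2 scale, edgeR adjusted p = 0.023). In preGM 5 were higher and none lower: Hoxa10 (4.59 on the log2 scale), Hoxa7 (2.68), Hoxa3 (2.32), Hoxa9 (2.08) and Hoxa5 (1.95). The median log2 change of the 10 genes was 0.89 in HSC and 2.01 in preGM, beside 2.01 and 1.60 for the 7 Hoxb members. The 1.60 is the fitted value of Hoxb7, with 1 count in MLL-ENL preGM and none in WT preGM. The interaction passed for Hoxa10 (3.39), Hoxa7 (2.24) and Hoxa9 (1.30), with the larger response in preGM, and with edgeR for none of the Hoxb members. Between cell types in WT, 6 of the 10 were lower in preGM, with Hoxa10 (-5.13), Hoxa5 (-4.31), Hoxa3 (-4.03) and Hoxa6 (-3.26) the furthest. With MLL-ENL, 5 were lower in preGM, among them Hoxa6 (-3.05), Hoxa3 (-3.02), Hoxa5 (-2.49) and Hoxc6 (2 counts in MLL-ENL preGM and 33 in MLL-ENL HSC).

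Of 23 chromatin regulators of HOX loci, all tested, Mllt3 (AF9, a close relative of ENL) was the 1 gene higher with MLL-ENL in HSC (0.90 ± 0.22 on the log2 scale, edgeR adjusted p = 0.0279) and Cbx2, a Polycomb subunit, the 1 gene higher in preGM (1.26 ± 0.36, 0.048). None was lower in either. The Mllt3 response was lower in preGM by the interaction (-1.33 ± 0.31, edgeR adjusted p = 0.0244). Between cell types, 9 were lower and 1 higher in WT preGM than in WT HSC, with Phc1 (-2.89 ± 0.27), Cbx7 (-2.77 ± 0.35), Mllt3 (-2.57 ± 0.23), Cbx2 (-2.29 ± 0.37) and Kmt2a, the gene of MLL itself (-1.76 ± 0.23), the furthest. With MLL-ENL, 6 were lower and 1 higher in preGM, with Mllt3 (-3.90), Cbx7 (-2.99), Phc1 (-2.29) and Kmt2a (-1.45) lower and Eed (1.02) higher.

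Retinoic acid is a classical inducer of Hoxb genes, and its receptors and enzymes formed most of a list of 17 upstream factors, 12 of them tested. In HSC 4 were higher with MLL-ENL and none lower. Cyp26b1, the enzyme that breaks down retinoic acid, had 5.06, 5.77 and 4.28 CPM in MLL-ENL HSC and no counts in WT HSC, 426 counts against 0, at least 76.1-fold higher (limit of the exact 95% counting interval; edgeR adjusted p = 0.00039). Aldh1a1, an enzyme that makes retinoic acid from retinaldehyde, had 83.7, 88.0 and 82.6 CPM in MLL-ENL HSC and 8.38, 8.69 and 9.04 CPM in WT HSC (3.28 ± 0.29 on the log2 scale, edgeR adjusted p = 1.41e-05). The receptor gene Rarg had 4.05, 4.90 and 5.45 CPM in MLL-ENL HSC and 1.40, 0.815 and 0.800 CPM in WT HSC (2.25 ± 0.43, edgeR adjusted p = 0.00817). Rarb, a receptor gene that retinoic acid itself induces, had 72 counts in MLL-ENL HSC and 1 in WT HSC, a ratio of 47.6 with a wide interval (8.28 to 1907; edgeR adjusted p = 0.028). In preGM, Aldh1a1 was higher (2.52 ± 0.34, edgeR adjusted p = 0.000282) and Rara lower (-1.93 ± 0.44, 0.013). Rarg and Rara had a lower response in preGM by the interaction (-3.64 ± 0.61 and -2.59 ± 0.62, edgeR adjusted p = 0.00296 and 0.0294). Between cell types in WT, Aldh1a1 (-4.73) and Nfya (-0.89) were lower in preGM and Rara (1.74) and Nfyb (0.58) higher. With MLL-ENL, 6 were lower and 1 higher in preGM, led by Cyp26b1 (3 counts in MLL-ENL preGM and 426 in MLL-ENL HSC), Aldh1a1 (-5.49), Rarb (-2.89), Rarg (-2.85) and Rxra (-1.72), all lower. Cdx1, Cdx2 and Cdx4, the genes of the CDX proteins, were among the 5 of the list too low to test.

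The transgene is named after Col1a1, which lies on the same chromosome (94936224 to 94953042) and ends 1.24 Mb before the cluster. Col1a1 had 0 to 23 counts in a library. Of 46 tested genes within 1 Mb of the cluster, 3 were higher and 1 lower with MLL-ENL in HSC, which is 8.70% against 4.12% of all genes in either direction. Within 0.5 Mb, 18.2% of 22 genes passed. Abi3, an actin regulator gene, had 49.5, 65.9 and 57.4 CPM in MLL-ENL HSC and 21.7, 16.9 and 24.5 CPM in WT HSC (1.45 ± 0.26 on the log2 scale, edgeR adjusted p = 0.00494). Zfp652 changed by 0.92 ± 0.23 and Snf8 by -0.88 ± 0.23 on the log2 scale. Gm9796 had 49 counts in MLL-ENL HSC and none in WT HSC, at least 8.46-fold higher by the exact 95% limit, but 46 counts in WT preGM. In preGM, 2 of the 46 passed, both lower (Tbkbp1 by -1.46 ± 0.36 and Npepps by -0.98 ± 0.23), which is 4.35% against 6.77% of all genes. Both lie on the far side of the cluster from Col1a1, and none of the 22 genes within 0.5 Mb passed in preGM. Abi3, Zfp652, Snf8 and Gm9796, which passed in HSC, all lie on the same side of the cluster as Col1a1. Whether these positions matter was not tested. The interaction passed for Gm9796, Tbkbp1 (-2.22) and Abi3 (-1.84), or 6.52% against 3.13% of all genes. Between cell types, 9 of the 46 were higher and 1 lower in WT preGM than in WT HSC, led by Gm9796 (46 counts in WT preGM and none in WT HSC, at least 7.47-fold higher), B130006D01Rik (-2.14), Atp5g1 (2.09), Slc35b1 (1.67) and Phb (1.66). With MLL-ENL, 12 were higher and 7 lower, led by 2010300F17Rik (no counts in MLL-ENL preGM and 40 in MLL-ENL HSC, a ratio of at most 0.0683), Skap1 (-5.31), Copz2 (-2.76), Tbkbp1 (-2.73) and Abi3 (-2.27).

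**Figure D5:**
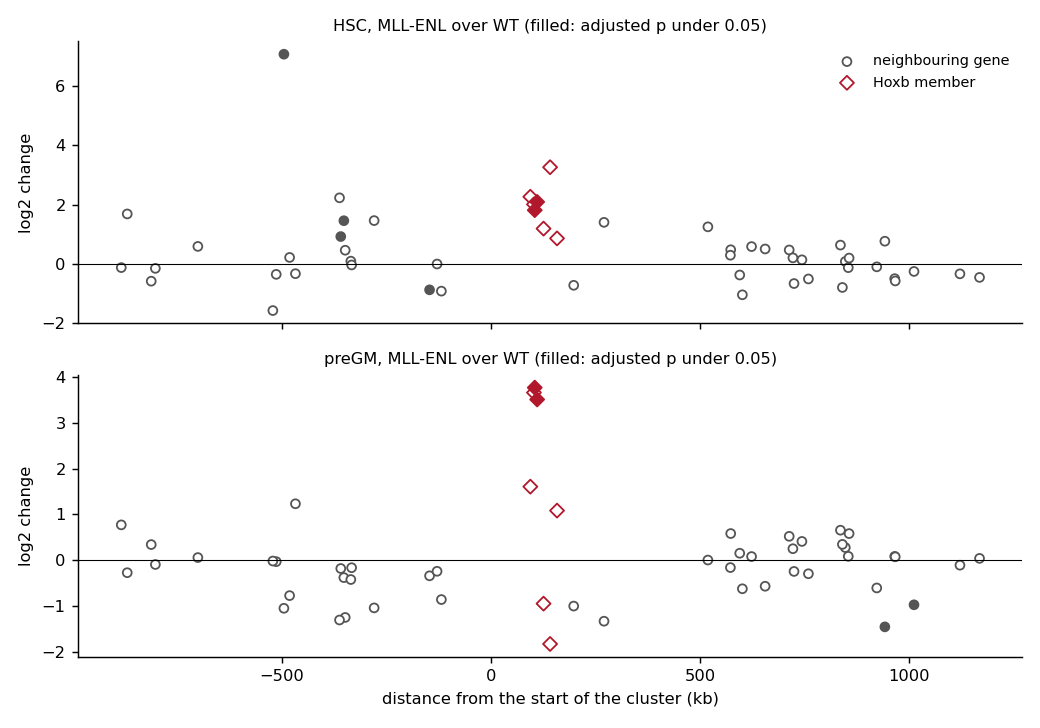
Log2 change, MLL-ENL over WT, of the 46 tested neighbours (circles) and the 7 tested members (diamonds) against distance from the start of the cluster, in HSC above and preGM below; filled symbols have an adjusted p under 0.05. In preGM the filled members at 3.77 and 3.51 stand above every neighbour, and in HSC 4 neighbours are filled, with Gm9796, which had no counts in WT HSC, at the top.

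The genes most like the members over the 12 libraries, by the Pearson correlation of log2 CPM with the mean of the 7 tested members, were Dtx3 (0.988), Tmem47 (0.982), Egfl7 (0.981), Gabarapl1 (0.981) and Enpp5 (0.979). These correlations describe libraries that share 4 groups, and carry no p. Egfl7, a secreted endothelial and stem cell protein gene, had 113 to 119 CPM in MLL-ENL HSC and 54.3 to 68.5 CPM in WT HSC, then 32.1 to 38.9 CPM in MLL-ENL preGM and 19.1 to 20.7 CPM in WT preGM. Dtx3, a ubiquitin ligase gene of the Deltex family, had 26.8 to 36.5 CPM in MLL-ENL HSC and 12.7 to 17.4 CPM in WT HSC, with 7.34 to 8.15 CPM in MLL-ENL preGM and 4.81 to 5.26 CPM in WT preGM. Tmem47 had 1.58 to 1.79 CPM in MLL-ENL HSC, 0.181 to 0.677 CPM in WT HSC and no counts in preGM of either strain.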

How the data were processed

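RNA-seq was measured in 12 libraries, 3 in each of 4 groups taken from the sample titles and characteristics. Per the labels' protocols, RNA came from RNeasy micro columns and libraries from the SMARTer kit for low input. The authors' deposited tables give a read count and an RPKM value for each exon and intron of 93615 transcripts, per the file headers. The counts are raw and the RPKM values are per kilobase and megaread. TopHat2 2.0.8, Bowtie2 2.1.0, HTSeq and edgeR are named in the submitters' processing notes, with no role or order. For the genome build, none was found: not given in the sources used here. GENCODE M21 on GRCm38 supplied gene names: 95.8% of the transcripts matched by identifier, 2890 were assigned by exon overlap and 1061 were left out (1.23% to 3.20% of the counts of a library). All coordinates are 1-based.

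For each gene, the deposited counts were summed over exons that do not overlap, chosen to cover the most bases. Genes under the low count filter (filterByExpr, minimum count 10 and total 15) were left out, so 15711 of 37614 genes and 7 of 8 members were tested. The test was edgeR's quasi-likelihood test (edgeR 4.0.16, R 4.3.3) with TMM scaling, 1 mean per group over all 12 libraries and robust dispersions, with Benjamini-Hochberg adjustment over all genes tested and a threshold of 0.05. The SE was derived from the log2 change and its F value. CPM for correlations were log2 values with a prior count of 2. Exact intervals, and the "at least" folds taken from their limits, cover counting error only. The fit was tested on simulated data with known changes. Alternatives were DESeq2 1.42.0, limma 3.58.1 on log2(RPKM + 0.1), other scaling, filters and exon sets, leaving out libraries, and a replicate block. The count restricted to exons shared with no other gene was chosen after seeing the data.

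The members and all lists were chosen with earlier results of these data known. All 8 members and the other Hoxb cluster genes are named, and of each other list those that passed, at most 5 per comparison by size of change, as well as the 5 genes most like the members. Any 2 libraries of a group differed beyond sampling noise. Motifs and sequences were read with Python 3.11.15, and intervals computed with SciPy 1.17.1. Some items of the lists and some sequences are not reported here.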

Additional observations from a re-analysis of the deposited data

How the results depend on the processing

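In HSC, 2 members were called with MLL-ENL against WT, 6 with limma on log2(RPKM + 0.1), where Hoxb7, Hoxb6, Hoxb4 and Hoxb3 joined, 1 with exons shared with no other gene, where Hoxb5 was lost (2.25 on the log2 scale, adjusted p = 0.119), and 1 to 3 when a library was left out. In preGM, 2 were called, 1 with limma, 1 with exons shared with no other gene, and 2 whichever library was left out. For the interaction, 0 were called with edgeR, 1 each with DESeq2, no filter and limma (Hoxb4 in each), and 0 to 1 when a library was left out. Between WT preGM and WT HSC, 5 were called, and 2 with only the groups compared in the fit. There Hoxb7, Hoxb6 and Hoxb2 fell under the low count filter and were not tested. When a library was left out, 3 to 6 were called, with 3 without WT HSC replicate 3 or WT preGM replicate 3. With MLL-ENL, 7 were called and 5 to 7 under all alternatives. The causes of the other differences were not tested.

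Directions turned for members that had not passed. The Hoxb6 interaction was -1.69 with limma, that of Hoxb5 -1.28 with limma and -1.29 with unshared exons, and that of Hoxb2 -0.97 with limma, -0.27 with the replicate block and -2.09 to 4.22 when a library was left out. Hoxb3 in WT preGM against WT HSC was -3.76 to 1.87 when a library was left out, and 1.87 without WT HSC replicate 1.

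Libraries of the same replicate number showed no shared pattern: over 12 such pairs, deviations from the group means correlated at -0.104 to 0.1005. These correlations cannot tell whether the numbers pair animals or cultures, which the labels do not state. With the replicate block, 2 members were called in HSC, 2 in preGM, 0 for the interaction, 4 between WT preGM and WT HSC and 7 with MLL-ENL. Without both libraries that stood apart, these counts were 3, 2, 0, 5 and 6.

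Over all genes, 647 were called in HSC (312 to 3369 under the alternatives), 1064 in preGM (566 to 1741) and 492 for the interaction (299 to 1926). Scaling by library size alone moved the median log2 change of all genes by 0.19 in HSC and 0.32 in preGM. Depth limits Hoxb8, Hoxb7, Hoxb6 and Hoxb3 in preGM, where each had at most 6 counts in a group.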
